A study of Arabidopsis thaliana with 6 samples.

Results

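The genes described are the 7 cytokinin oxidase/dehydrogenase genes of Arabidopsis thaliana, CKX1 to CKX7, and the 3 cytokinin receptor genes AHK2, AHK3 and AHK4. They were taken by locus, 10 of the 30457 features listed per library: CKX1 (AT2G41510), CKX2 (AT2G19500), CKX3 (AT5G56970), CKX4 (AT4G29740), CKX5 (AT1G75450), CKX6 (AT3G63440), CKX7 (AT5G21482), AHK2 (AT5G35750), AHK3 (AT1G27320) and AHK4 (AT2G01830). Polyadenylated RNA was read from ovules of plants labelled wild type and plants labelled sgd mutant, 3 libraries each, at stages FG1-FG3, when the embryo sac has few nuclei. Both groups carry the qrt1 background, a mutation that keeps pollen grains together in tetrads, and grew in a greenhouse in long days. The labels name no plant or batch behind a library, and p-values therefore measure only the spread between these libraries, which may be technical. The sources used here do not name the gene affected in sgd, and its transcript was not checked.

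Cytokinins are adenine-derived hormones that promote cell division and, in the flower, ovule formation. CKX enzymes end the signal by cutting off the cytokinin side chain, an irreversible step that uses a bound flavin. The AHK receptors are membrane histidine kinases. On binding cytokinin they pass a phosphate through AHP carriers to type-B ARR transcription factors, which switch on target genes that include type-A ARR repressors and several CKX genes. In Arabidopsis, plants lacking CKX3 and CKX5 together form more ovules, and plants with reduced AHK function form fewer functional embryo sacs.

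Of the 10 genes, CKX3 and CKX7 fell and AHK3 rose in sgd ovules. CKX7 went from 11.9 ± 4.88 to 2.01 ± 0.221 FPKM and CKX3 from 5.28 ± 3.55 to 0.557 ± 0.0451 FPKM, while AHK3 went from 19.6 ± 2.52 to 39.7 ± 4.88 FPKM (SD, n = 3). FPKM are sequenced fragments scaled to transcript length and to the fragments of the library, so levels can be compared between genes. CKX2 and CKX4 were under the mean of 1 FPKM needed for the test. Among the 8 members tested, 2 fell and 1 rose (limma, Benjamini-Hochberg adjusted p under 0.05), beside 4.47% fallen and 13.3% risen of the 18100 features tested. The median change of the 8 was -0.34 on the log2(FPKM + 1) scale, against 0.13 over the features tested.

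The sequences below show the catalytic site shared by the CKX proteins and the phosphorylation site shared by the receptors. They are given for the called members CKX3, CKX7 and AHK3, and for CKX5, AHK2 and AHK4, which did not pass. Each is 33 bases of coding sequence, 5′ to 3′, from RefSeq's assembly TAIR10.1, with capitals for 1 histidine codon. In the oxidases this histidine, between a glycine and a serine, holds the flavin. In the receptors it is the residue of the kinase domain that takes up phosphate.
CKX3 (chr5:23047916-23047948, minus strand): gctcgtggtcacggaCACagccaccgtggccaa
CKX7 (chr5:7227112-7227144, plus strand): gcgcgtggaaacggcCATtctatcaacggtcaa
CKX5 (chr1:28317744-28317776, minus strand): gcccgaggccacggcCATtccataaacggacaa
AHK2 (chr5:13913897-13913929, minus strand): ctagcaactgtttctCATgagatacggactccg
AHK3 (chr1:9489902-9489934, plus strand): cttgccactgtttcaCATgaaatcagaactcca
AHK4 (chr2:365509-365541, minus strand): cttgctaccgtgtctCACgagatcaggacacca
Each motif occurred 1 time in the longest annotated coding sequence of each member. The histidine is codon 105 of 524 in CKX3, 96 of 525 in CKX7 and 102 of 541 in CKX5, and codon 597 of 1177 in AHK2, 460 of 1037 in AHK3 and 482 of 1081 in AHK4.

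Coding sequences differed widely within both families. Identity over global alignments of CKX pairs, gaps counted as mismatches, ran from 47.0% (CKX1 with CKX2) to 72.1% (CKX2 with CKX4), and of receptor pairs from 55.7% to 57.1%. The longest exact run shared by the transcripts of a CKX pair was 26 bases, between CKX2 and CKX3, and by a receptor pair 21 bases, between AHK2 and AHK4. CKX7 has 4 annotated coding exons and the other CKX genes 5. The receptor genes have 10 to 13. CKX1, CKX2, CKX5 and CKX6 overlap other annotated genes, and since no source used here says whether counting used strand, fragments from overlapping genes cannot be told apart there. CKX3, CKX4, CKX7 and the 3 receptor genes overlap none. CKX3 lies at chr5:23044839-23048292 on the minus strand, CKX7 at chr5:7226606-7230304 on the plus strand and AHK3 at chr1:9486889-9492632 on the plus strand.

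**Figure D1:**
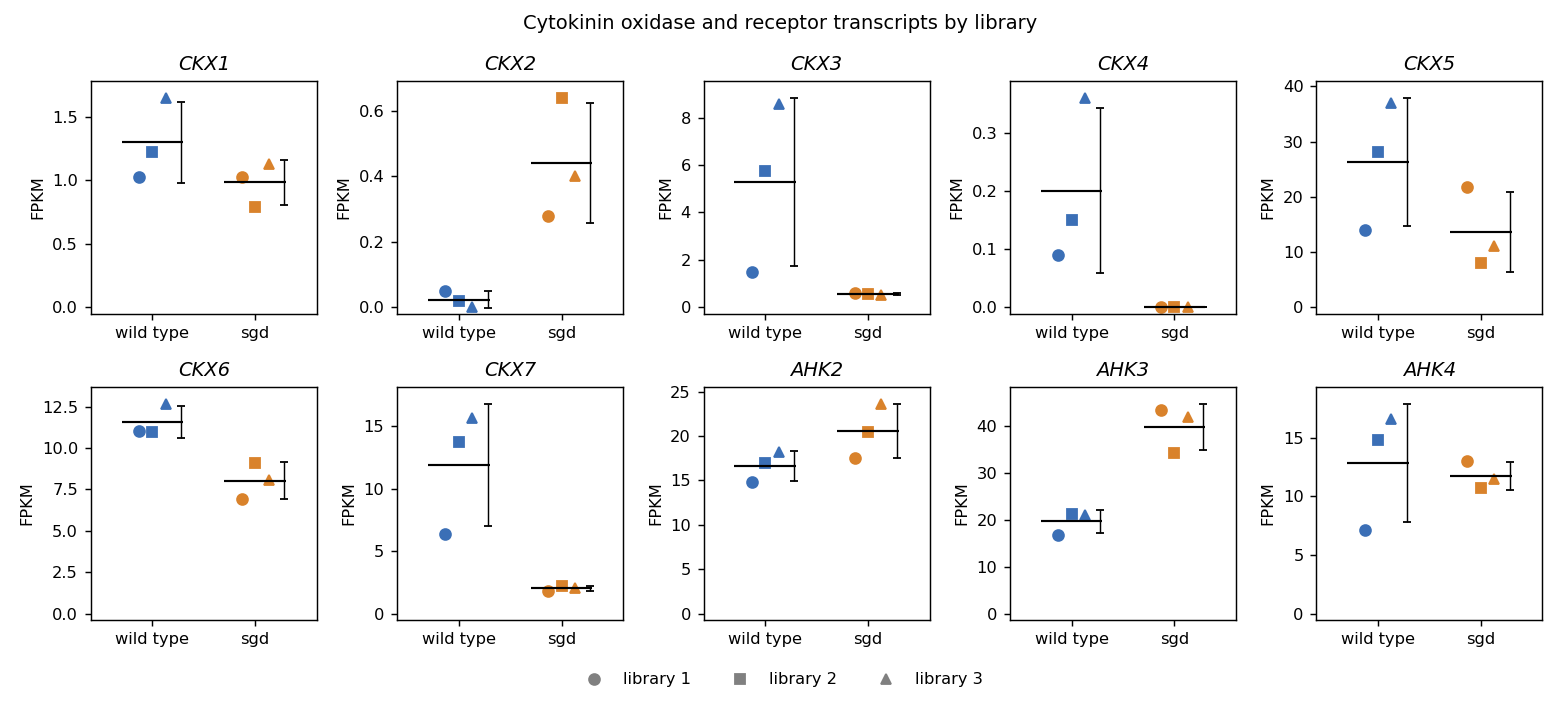
FPKM of the 10 genes (vertical axes, linear, each panel with its own range) in wild-type and sgd ovules. Points are libraries, horizontal lines are means and bars are SD (n = 3). CKX3, CKX4, CKX6 and CKX7 lie lower and CKX2 and AHK3 higher in all 3 sgd libraries than in any wild-type library. CKX2 and CKX4 were not tested. Over all features tested 8.8% lie lower and 26.8% higher in this way. Wild-type library 1 is the lowest wild-type point for 8 of the 10 genes, the exceptions being CKX2 and CKX6.

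CKX7, which encodes the cytosolic oxidase of the family, read 6.38, 13.7 and 15.6 FPKM across the wild-type libraries, in replicate order, and 1.78, 2.22 and 2.03 FPKM across those of sgd. The groups did not overlap, and the lowest wild-type library lay well above the highest sgd library. The change was -2.02 on the log2(FPKM + 1) scale (SE 0.33, 95% interval -2.75 to -1.29, limma adjusted p = 0.00233). CKX7 passed under each of the 18 alternatives run, with changes from -2.47 to -1.79. The values rested on an estimated 312 to 1130 fragments in wild type and 45.6 to 79.6 in sgd.

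CKX3, known for limiting growth of the inflorescence meristem, read 1.51, 5.75 and 8.57 FPKM across the wild-type libraries, in replicate order, and 0.60, 0.56 and 0.51 FPKM across those of sgd. All sgd values were nearly the same and below each wild-type value, while the wild-type values spread widely with library 1 lowest. The change was -1.81 on the log2(FPKM + 1) scale (SE 0.45, 95% interval -2.80 to -0.82, limma adjusted p = 0.0192). The call was lost without wild-type library 2 (limma adjusted p = 0.0589), without wild-type library 3 (0.0705) and with no filter on low values (0.137). With a pseudocount of 0.1 or 0.01 in place of 1 the change was -2.73 or -2.90, and over all alternatives it ran from -2.90 to -1.40. Without both replicate 1 libraries it was -2.39 (limma adjusted p = 0.00173). An estimated 60.4 to 502 fragments lay behind the wild-type values and 9.18 to 22.0 behind those of sgd. CKX3 reached the mean of 1 FPKM needed for the test only through its wild-type values.

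CKX5, the oxidase transcript with the highest mean in both genotypes though below CKX6 in sgd library 2, read 13.92, 28.06 and 36.94 FPKM across the wild-type libraries, in replicate order, and 21.80, 8.10 and 11.02 FPKM across those of sgd. The groups overlapped through the replicate 1 libraries, where CKX5 was higher in sgd, while for numbers 2 and 3 it was lower in sgd. CKX5 did not pass (log2 change -0.91, SE 0.42, 95% interval -1.83 to 0.02, limma adjusted p = 0.175). It passed without sgd library 1 (-1.28, limma adjusted p = 0.0284), without both replicate 1 libraries (-1.67, limma adjusted p = 0.00326) and with array weights (-1.54, limma adjusted p = 4.46e-05). Without wild-type library 3 or sgd library 2 the change was -0.62 in each case (limma adjusted p = 0.461 and 0.416).

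CKX6 read 11.05, 10.95 and 12.67 FPKM across the wild-type libraries, in replicate order, and 6.92, 9.13 and 8.06 FPKM across those of sgd. The groups lay close together and did not overlap. CKX6 did not pass in the unpaired fit (log2 change -0.48, SE 0.24, limma adjusted p = 0.208). With the replicate number as a block it passed (SE 0.13, limma adjusted p = 0.0447), as it did after rescaling to equal totals (-0.54, 0.0361), median-ratio scaling (-0.62, 0.0259) and quantile normalization (-0.69, 0.0157). It also passed with array weights (-0.4, limma adjusted p = 0.0174). CKX1, whose product is anchored in the membrane of the endoplasmic reticulum, ranged from 1.03 to 1.65 FPKM in wild type and from 0.79 to 1.13 FPKM in sgd, and did not pass (log2 change -0.21, SE 0.29, limma adjusted p = 0.707).

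CKX2 and CKX4 were near the limit of detection. CKX2, which encodes a secreted oxidase, was listed at 0.05, 0.02 and 0 FPKM across the wild-type libraries, in replicate order, and 0.28, 0.64 and 0.40 FPKM across those of sgd. By the depth estimated from the steps of low values, that is about 1.93, 0.994 and 0 fragments in wild type and 9.90, 11.9 and 6.90 fragments in sgd. CKX4 was listed at 0.09, 0.15 and 0.36 FPKM in wild type, about 4.23, 9.12 and 24.9 fragments, and at 0 in each sgd library. The groups overlapped for neither gene, with CKX2 higher and CKX4 lower in the sgd libraries, on few fragments. With no filter on low values neither passed (limma, adjusted p = 0.0572 for CKX2 and 0.182 for CKX4). Over the features tested, all 3 sgd libraries lay above all 3 wild-type libraries for 26.8% and below for 8.8%. Of the 8 members tested AHK3 lay above and CKX3, CKX6 and CKX7 below. CKX2, above, and CKX4, below, are outside the set that these shares cover.

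AHK3, a receptor known from cytokinin control of leaf ageing, read 16.7, 21.2 and 20.9 FPKM across the wild-type libraries, in replicate order, and 43.2, 34.1 and 41.8 FPKM across those of sgd. Each sgd library was above each wild-type library. The change was 0.98 on the log2(FPKM + 1) scale (SE 0.25, 95% interval 0.42 to 1.54, limma adjusted p = 0.0225). The call was lost without wild-type library 2 (limma adjusted p = 0.0843), wild-type library 3 (0.0779) or sgd library 3 (0.102), with changes of 1.04, 1.03 and 0.94 there. With the 3 rescalings of libraries AHK3 changed by 0.80 to 0.92 and passed.

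AHK2 read 14.9, 16.9 and 18.2 FPKM across the wild-type libraries, in replicate order, and 17.6, 20.4 and 23.6 FPKM across those of sgd, with overlapping groups. It did not pass (log2 change 0.28, SE 0.24, 95% interval -0.26 to 0.82, limma adjusted p = 0.509), but did with array weights (0.33, limma adjusted p = 0.0292). AHK4, also named CRE1 or WOL, which can remove phosphate from the AHP carriers when no cytokinin is bound, read 7.13, 14.8 and 16.6 FPKM across the wild-type libraries, in replicate order, and 13.0, 10.7 and 11.5 FPKM across those of sgd. All sgd values lay between the wild-type extremes. Its change was -0.05 (SE 0.32, 95% interval -0.75 to 0.65, limma adjusted p = 0.946). Without both replicate 1 libraries the AHK4 change was -0.47 (limma adjusted p = 0.0240), and with array weights -0.42 (limma adjusted p = 0.0204).

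The order of the receptors was the same in all 6 libraries, AHK3 above AHK2 above AHK4. In wild type neighbours in this order overlapped across libraries, and in sgd they did not. The ratio of AHK3 to AHK2 within a library, which no scaling of whole libraries can alter, was 1.12, 1.25 and 1.15 across the wild-type libraries, in replicate order, and 2.46, 1.67 and 1.77 across those of sgd. AHK3 made up 40.2% ± 2.83 of the summed receptor FPKM in wild type and 55.1% ± 3.21 in sgd (SD, n = 3). AHK3 over AHK4 was 1.26 to 2.34 in wild type and 3.18 to 3.65 in sgd. Among features above 0 FPKM in the group mean, AHK3 ranked at percentile 68.5 in wild type and 82.4 in sgd, AHK2 at 64.2 and 65.9 and AHK4 at 57.9 and 52.1. Ratios, ranks and shares are given as descriptions, with no test.

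Among the oxidases, wild-type means ran from CKX5 (26.3 FPKM) over CKX7 (11.9 FPKM), CKX6 (11.6 FPKM), CKX3 (5.28 FPKM) and CKX1 (1.30 FPKM) to CKX4 and CKX2. Each neighbouring pair from CKX5 to CKX1 overlapped across wild-type libraries, apart from CKX6 and CKX3. In sgd the order was CKX5 (13.6 FPKM), CKX6 (8.04 FPKM), CKX7 (2.01 FPKM), CKX1 (0.983 FPKM), CKX3 (0.557 FPKM) and CKX2 (0.440 FPKM), with overlap between CKX5 and CKX6 and between CKX3 and CKX2. The within-library ratio of CKX7 to CKX6 was 0.577, 1.25 and 1.23 across the wild-type libraries, in replicate order, and 0.257, 0.243 and 0.252 across those of sgd. CKX7 held 20.8% ± 2.09 of summed CKX FPKM in wild type and 8.21% ± 2.48 in sgd, and CKX3 8.45% ± 3.58 and 2.22% ± 0.381 (SD, n = 3). CKX5 held 45.5% ± 4.08 and 50.9% ± 15.0, which overlapped. By rank among features above 0 FPKM, CKX5 went from percentile 76.2 to 55.5, CKX7 from 56.0 to 29.4, CKX6 from 55.4 to 44.9 and CKX3 from 42.0 to 19.7.

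**Figure D2:**
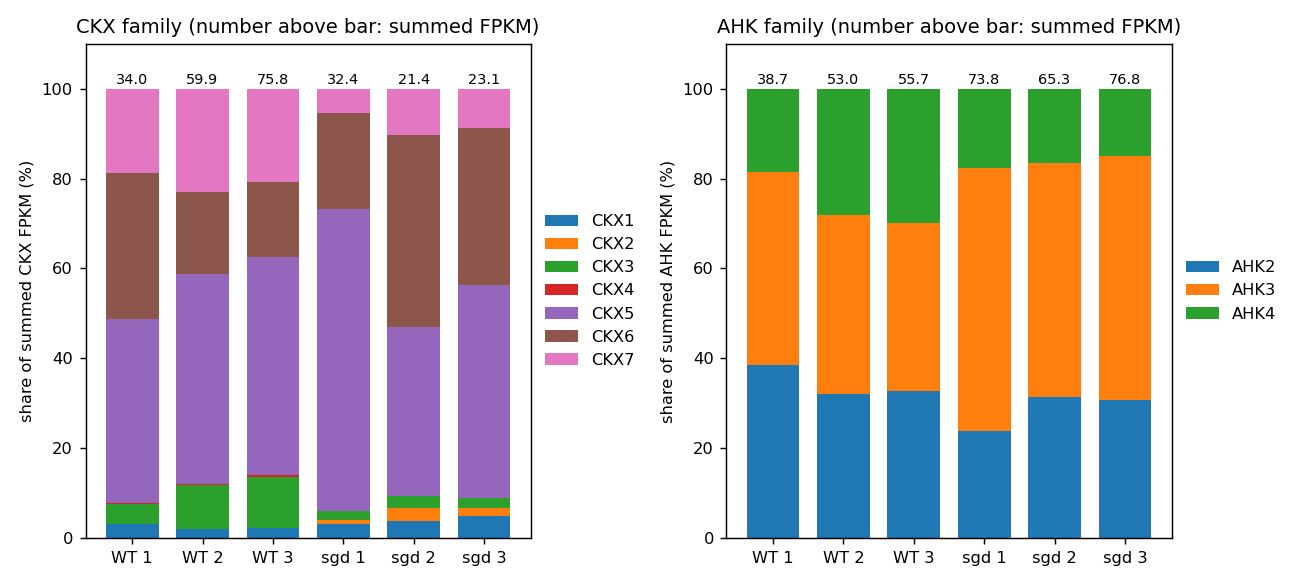
Share of each member in the summed FPKM of its family (vertical axis, percent) in each library, with the summed FPKM above each bar. The CKX7 and CKX3 segments are smaller in the sgd libraries and the AHK3 segment larger, while the CKX5 share varies most in sgd, from 37.8% to 67.3%.

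Summed over the family, CKX transcripts came to 34.0, 59.9 and 75.8 FPKM across the wild-type libraries, in replicate order, and 32.4, 21.4 and 23.1 FPKM across those of sgd. Receptor transcripts came to 38.7, 53.0 and 55.7 FPKM in wild type and to 73.8, 65.3 and 76.8 FPKM in sgd. For the oxidases the replicate 1 libraries nearly met, and for the receptors the groups stood clear of each other. The ratio of summed CKX to summed receptor FPKM was 0.880, 1.13 and 1.36 across the wild-type libraries, in replicate order, and 0.439, 0.328 and 0.301 across those of sgd. In whole ovules, fewer cells of a type and less RNA per cell cannot be told apart.

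The other cytokinin genes were read from 9 lists of 64 genes, of which 34 could be tested: 5 rose and 5 fell, beside 13.3% risen and 4.47% fallen over all features tested, so the number risen was near the share of all features. With the replicate block 9 rose and 8 fell, beside 26.5% risen and 14.3% fallen over all features tested with that fit. Only 1 fell with no filter on low values, and 2 without wild-type library 2 or without wild-type library 3. On the supply side, among 3 tested of 11 IPT and CYP735A genes of cytokinin synthesis, IPT1 fell from 7.15 ± 2.61 to 2.18 ± 1.16 FPKM (SD, n = 3; by limma the adjusted p was 0.0248). Among 5 tested of 9 LOG genes, whose products release the active base, LOG3 fell from 5.09 ± 1.65 to 0.700 ± 0.0872 FPKM (SD, n = 3; by limma the adjusted p was 0.00280). With the replicate block LOG4 also fell (3.07 ± 1.41 and 0.830 ± 0.416 FPKM, SD, n = 3, limma adjusted p = 0.0524 without and 0.0256 with the block) and LOG8 rose (3.26 to 4.27 FPKM in wild type and 5.57 to 8.68 FPKM in sgd, limma adjusted p = 0.0605 and 0.0233). IPT1 was not called when wild-type library 2 or 3 was left out (limma adjusted p = 0.0764 and 0.103) and with no filter (0.144).

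Downstream of the receptors, 3 of the 8 type-A response regulators tested fell and none rose, beside 4.47% fallen and 13.3% risen over all features tested. With array weights, without sgd library 1 and without both replicate 1 libraries, 1 type-A gene rose in each case. ARR4 read 9.36, 25.9 and 36.2 FPKM across the wild-type libraries, in replicate order, and 4.60, 6.31 and 5.20 FPKM across those of sgd (by limma the adjusted p was 0.0151). ARR7 went from 6.49 ± 4.51 to 0.547 ± 0.315 FPKM and ARR9 from 3.27 ± 0.690 to 1.11 ± 0.335 FPKM (SD, n = 3; by limma the adjusted p was 0.0207 and 0.0347). Both were called neither without wild-type library 2 (limma adjusted p = 0.0591 and 0.144) nor without wild-type library 3 (0.0631 and 0.177), and with no filter ARR4, ARR7 and ARR9 all lost their calls (0.132, 0.160 and 0.0595). ARR9 also lost it without sgd library 3 (0.0624). Among 5 tested type-B regulators, the transcription factor gene ARR1 rose from 22.4 ± 2.98 to 44.0 ± 6.34 FPKM (SD, n = 3; by limma the adjusted p was 0.0298). That call was lost without any 1 library other than sgd library 1 (limma adjusted p from 0.0548 to 0.141). None of the 4 tested AHP genes passed limma at the adjusted threshold, and 1 of them, AHP6, had an unadjusted limma p of 0.00978. With the replicate block AHP5 and AHP6 fell (limma adjusted p = 0.0497 and 0.0308), beside 14.3% fallen over all features tested with that fit. AHP2, the most abundant, stood at 33.6 ± 12.9 and 28.5 ± 6.87 FPKM (SD, n = 3).

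CRF6, a cytokinin response factor gene also known from oxidative stress, rose from 2.05 ± 0.254 to 50.1 ± 14.4 FPKM (SD, n = 3), or by 4.03 on the log2 scale (SE 0.28, adjusted p = 2.21e-05 by limma). It was the 1 member called of 4 tested CRF genes, and with the replicate block CRF2 and CRF5 rose too (limma adjusted p = 0.0199 and 0.00797). Beside the calls in this paragraph stand 13.3% risen and 4.47% fallen over all features tested. With the replicate block these shares were 26.5% and 14.3%. The transporter genes PUP14, which takes cytokinin into cells, and ENT3 rose by 2.90 and 1.28 on the log2 scale (SE 0.39 and 0.27, limma adjusted p = 0.000835 and 0.00924). ABCG14, the other gene of this list, went the other way and did not pass (means 11.6 and 6.59 FPKM, log2 change -0.72, limma adjusted p = 0.112). It was called fallen with quantile normalization, with array weights, without sgd library 1 and without both replicate 1 libraries. UGT73C5, a glucosyltransferase known to act on brassinosteroids and cytokinins, was the 1 testable gene of 5 conjugation genes and rose from 0.147 ± 0.0153 to 4.63 ± 0.590 FPKM (SD, n = 3; by limma the adjusted p was 0.000452). UGT73C5 reached the mean of 1 FPKM only through its sgd values, while CKX3, LOG3 and ARR7 reached it only through their wild-type values. Of those not tested, UGT76C2 (means 1.16 in wild type and 0.0933 FPKM in sgd) and UGT85A1 (0.287 and 0.12 FPKM) lay lower in all sgd libraries. UGT76C1 (0.103 and 0.297 FPKM) lay higher. Of 3 other histidine kinase genes AHK1, an osmosensor that binds no cytokinin, was the 1 tested. It stood at 1.89 ± 0.159 and 4.28 ± 0.869 FPKM (SD, n = 3; by limma the adjusted p was 0.0506, and 0.0208 with the replicate block).

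**Figure D3:**
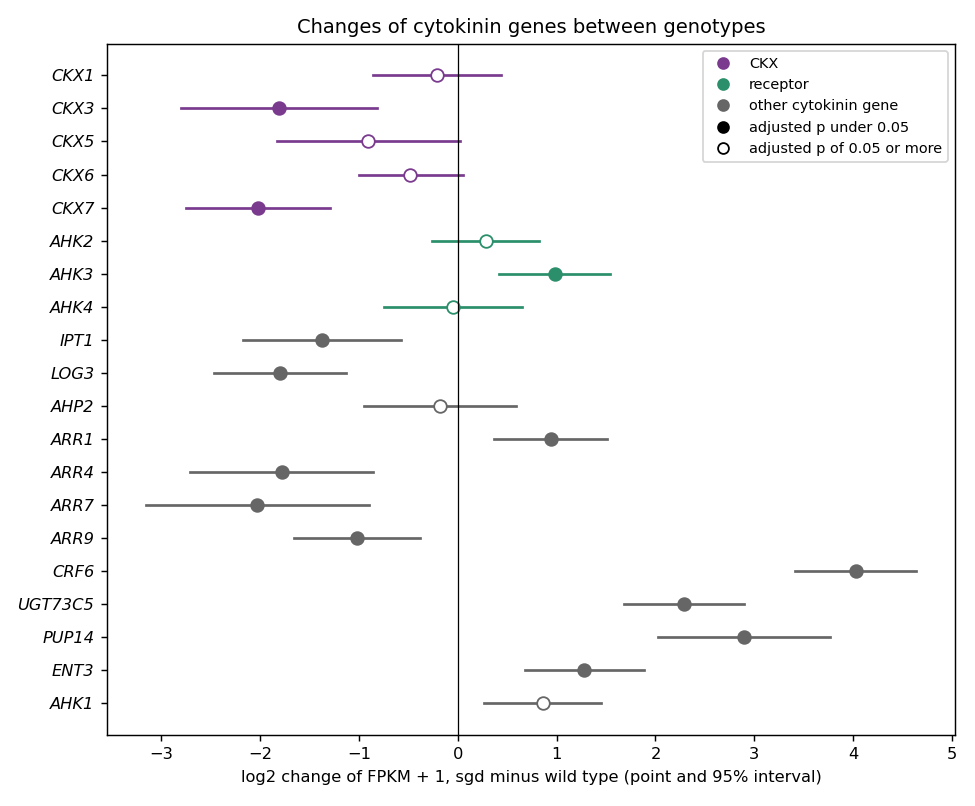
Log2 change of FPKM + 1, sgd minus wild type (horizontal axis), with 95% intervals, for the 8 tested members and the named genes of the other cytokinin lists. Filled points passed limma at an adjusted p under 0.05: CKX3 and CKX7 lie left of 0 with IPT1, LOG3, ARR4, ARR7 and ARR9, and AHK3 lies right of 0 with ARR1, CRF6, UGT73C5, PUP14 and ENT3.

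The bases before the annotated gene start are shown for the members that changed, since CKX genes are known targets of type-B ARR factors. Each line is 250 bases of TAIR10.1, 5′ to 3′, ending at the base before the start. Capitals mark core motifs known to be bound by type-B ARR factors on either strand, spelled out after the sequences.
CKX3 (chr5:23048293-23048542, minus strand): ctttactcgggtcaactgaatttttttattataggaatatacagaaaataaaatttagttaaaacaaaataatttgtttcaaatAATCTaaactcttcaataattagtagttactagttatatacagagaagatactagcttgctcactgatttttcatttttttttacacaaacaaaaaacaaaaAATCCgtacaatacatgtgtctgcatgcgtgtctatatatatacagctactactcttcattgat
CKX7 (chr5:7226356-7226605, plus strand): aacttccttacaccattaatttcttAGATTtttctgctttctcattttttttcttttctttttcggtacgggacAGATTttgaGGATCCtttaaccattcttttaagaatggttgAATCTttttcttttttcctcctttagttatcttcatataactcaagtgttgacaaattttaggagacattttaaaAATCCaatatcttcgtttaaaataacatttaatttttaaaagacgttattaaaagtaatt
AHK3 (chr1:9486639-9486888, plus strand): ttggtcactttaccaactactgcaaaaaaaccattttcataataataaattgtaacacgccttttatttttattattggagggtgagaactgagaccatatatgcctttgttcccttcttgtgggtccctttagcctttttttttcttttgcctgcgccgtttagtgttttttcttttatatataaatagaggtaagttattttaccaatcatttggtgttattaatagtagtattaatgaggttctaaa
The CKX7 window held 6 occurrences, the CKX3 window 2 and the AHK3 window 0, with a palindrome counted on both strands. A median window of the 27443 nuclear protein-coding genes held 2. AGATT was found in 63.7% of those windows, GGATT in 38.0%, AGATC in 26.6% and GGATC in 18.2%, and 3.92% held 6 or more. A match is a string of letters and no evidence of binding. Among the other members, the window of CKX6 held 6, AHK4 5, CKX2 4, CKX1 and CKX5 1 each, and CKX4 and AHK2 0. The windows of CKX1, CKX2 and CKX6 each lie inside another annotated gene. Of the response genes, ARR7, which fell, held 6 and ARR4 and ARR9 2 each, while CRF6, which rose, and ARR16, which did not pass the test, held 7 each. Among the supply genes that fell, LOG3 held 0 and IPT1 2. Any part of these motifs in the changes was not tested.

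Likeness of pattern was measured as Pearson's r of log2(FPKM + 1) over the 6 libraries, against 14557 features with a mean of at least 5 FPKM, and is a description because the points share genotypes and libraries. Most like CKX7 were SRS7 (AT1G19790), a SHI-related zinc finger gene, at r = 0.998, and AT2G34700 at r = 0.997. Most like CKX3 were AT1G13230 and AT4G21105, each at r = 0.996. Most like AHK3 were ASG5 (AT1G20650) and the GRAS factor gene SCL14 (AT1G07530), each at r = 0.9995. SRS7 read 10.24, 18.39 and 18.74 FPKM across the wild-type libraries, in replicate order, and 4.19, 4.46 and 4.32 FPKM across those of sgd.

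Markers of other cells and the make-up of the libraries moved beside these results. Of 6 pollen markers 5 rose, with summed levels of 12.5 to 35.8 FPKM in wild type and 113 to 241 FPKM in sgd, and of 5 green tissue markers 1 rose, with 278 to 774 and 956 to 1126 FPKM. Of 8 ovule markers 6 were tested and 2 fell, ANT and BEL1. Over all features tested 13.3% rose and 4.47% fell, and with the replicate block 26.5% rose and 14.3% fell. With the replicate block STK also fell and SHP1 rose among the ovule markers (limma adjusted p = 0.00456 and 0.00874), and LHCB3 rose among those of green tissue (0.0250). The ovule sum was 679 to 1367 FPKM in wild type and 446 to 854 FPKM in sgd, SPL stood at 1.15 to 1.39 and 0 to 0.07 FPKM, and WUS was listed at 0 in 5 libraries. Their part in the CKX and AHK results was not tested. Both replicate 1 libraries had lower FPKM totals, 528715 and 561173 against 750410 to 796250, and organelle loci at 2.18% and 2.08% of the total against at most 0.0733%. Estimated depth was 26250000 to 39960000 fragments in wild type and 13190000 to 23750000 in sgd. Pearson's r across genes was at least 0.946 within wild type and at least 0.890 within sgd, and no files held identical values.

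**Figure D4:**
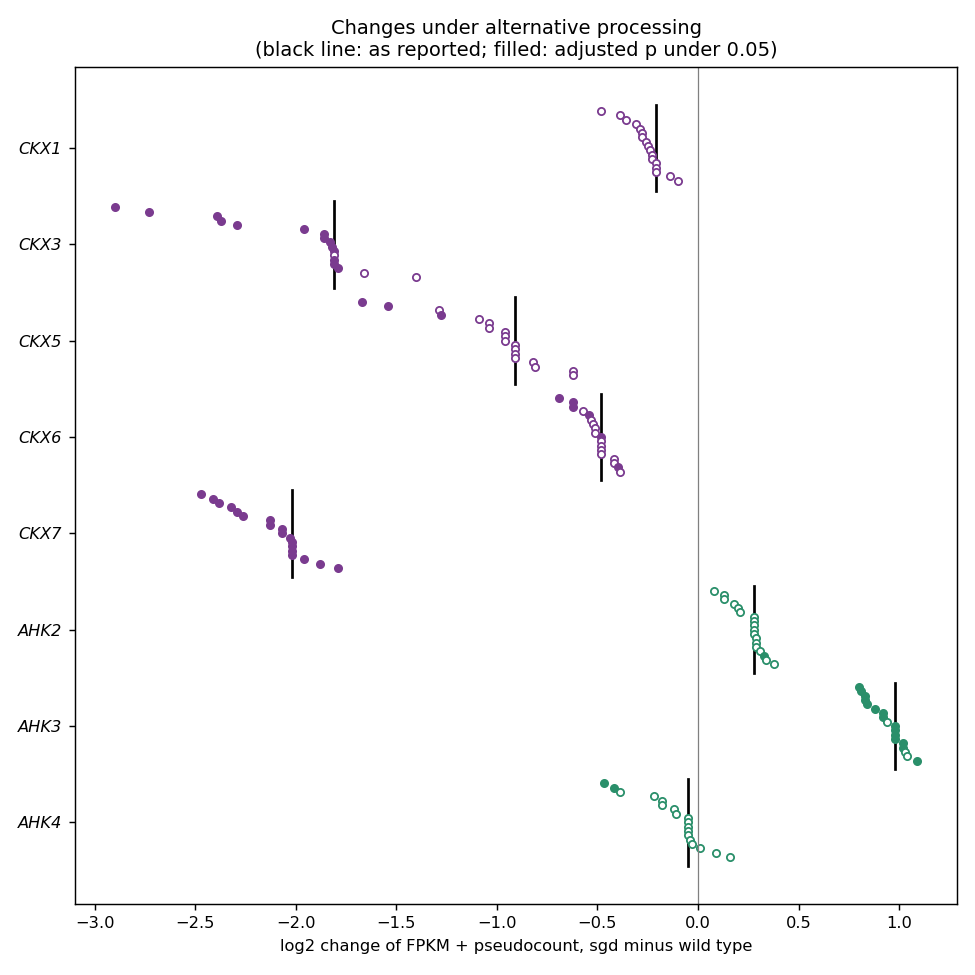
Log2 change, sgd minus wild type (horizontal axis), of the 8 tested members under each alternative processing, with 1 point per alternative, filled where limma's adjusted p was under 0.05, and a black line for the value reported. All CKX7 points are filled, CKX3 and AHK3 have 3 open points each, and AHK4 lies on both sides of 0.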

How the data were processed

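FPKM per gene were deposited by the authors, 1 file of 30457 features per library with 2 decimals, per the file headers. The submitters' processing notes list TAIR10 as the build and, without saying which step used which, RSEM, DESeq2, TopHat2 2.1.1, CASAVA and cutadapt 1.15. Symbols came from RefSeq's table of TAIR10.1, which matched 98.1% of identifiers. Sequences and their coordinates were read from RefSeq's TAIR10.1 genome and annotation, and the FPKM files give no coordinates.

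The test was limma 3.58.1 (R 4.3.3, lmFit and trended eBayes, two-sided) of log2(FPKM + 1). It took the 18100 features whose mean over 6 libraries reached 1 FPKM, with Benjamini-Hochberg adjustment over all of them and a threshold of 0.05. This scale understates changes of low genes. The fit was tested on simulated data. The steps between low FPKM values (up to 5 fragments) gave a depth estimate, with fragment length fitted beside it. Of the values used, 95.2% to 97.1% lay within 0.2 of a whole fragment. Estimated fragments use RefSeq transcript lengths and are approximate.

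Named genes were the members, the called genes of each cytokinin list (at most 4, or the most abundant where none was called) and the 2 features most like each called member. Members and lists were chosen with earlier results of these data known. Deviations from group means correlated at 0.524, 0.236 and 0.377 between libraries of the same number 1, 2 and 3, and at 0.354 and 0.431 for the crossed numbers 2 and 3. The labels state no pairing. Each same-number value passed 0.1, but for numbers 2 and 3 the crossed values were of similar size, so these values do not show that those libraries pair. A fit with the numbers, taken from the labels, as a block is given beside the unpaired fit where it changes a call. LOG4, LOG8, AHP5, AHP6, CRF2, CRF5, STK, SHP1 and LHCB3 are named for such a change, after their values were seen. So are ARR16, for its upstream window, and ABCG14, to complete the transporter list. Alternatives covered pseudocount, filter, scaling, block, moderation, library weights and libraries left out. Array weights used limma's gene-by-gene method because the default did not converge.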

Additional observations from a re-analysis of the deposited data

How the results depend on the processing

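Direction held for CKX1, CKX3, CKX5, CKX6, CKX7, AHK2 and AHK3 under every alternative in which they were tested. The exceptions were AHK4, at 0.09 and 0.16 when wild-type library 2 or 3 was left out and 0.01 without sgd library 2, and AHP2, at 0.04 with wild-type library 3 left out (over single libraries left out they ranged from -0.39 to 0.16 and from -0.53 to 0.04). CKX7 passed under all 18, and CKX3 under 14 of 17 and AHK3 under 15 of 18. Members called fallen numbered 1 with no filter or a mean of at least 5 FPKM (CKX3 is not tested there), 4 without both replicate 1 libraries and 5 with array weights, which called 2 risen. Leaving out 1 library gave 0 to 1 risen and 1 to 3 fallen members, 4 to 10 risen and 2 to 7 fallen pathway genes, and 1535 to 3496 risen and 407 to 968 fallen features. Pathway genes, risen and fallen, numbered 9 and 8 with equal totals, 8 and 8 with median-ratio scaling, 8 and 9 with quantile normalization, 9 and 8 with the replicate block, with or without median-ratio scaling, 12 and 10 with array weights and 10 and 9 without both replicate 1 libraries. Fallen ones numbered 1 with no filter or a mean of at least 5 FPKM. Over all features, risen and fallen numbered 4135 and 2628 with equal totals, 4793 and 2583 with the replicate block, 6361 and 3322 with array weights and 5690 and 3097 without both replicate 1 libraries. Fallen features numbered 412 with no filter, 3393 with median-ratio scaling, 3661 with that and the block, and 3694 with quantile normalization. The share of calls higher in sgd was 74.8% as deposited, 61.1% with equal totals, 50.6% with median-ratio scaling and 46.2% with quantile normalization, and median-ratio scaling moved the median change from 0.13 to -0.02. Summed family FPKM moved by less than 1 SD under both scalings, and leaving out 1 library gave 47.0 to 67.8 and 22.3 to 27.8 FPKM for CKX and 45.8 to 54.3 and 69.6 to 75.3 FPKM for the receptors, in wild type and sgd. The block changed no other member's call than that of CKX6. The cause of these shifts was not tested beyond what each setting leaves out. Low fragment numbers limit CKX2 and CKX4.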
